A study of Homo sapiens with 6 samples.

Results

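The SLAM family is a set of receptors on the surface of blood cells, most of which bind a copy of themselves on a neighbouring cell. CD48 is the exception in its form, because it is held in the membrane by a glycosylphosphatidylinositol (GPI) lipid anchor, has no cytoplasmic tail and serves as the ligand of CD244. CD58, a relative encoded elsewhere on the same chromosome, is the ligand of CD2, the receptor through which T cells and NK cells attach to their targets. The receptors with a long tail carry tyrosine motifs that recruit the small adaptors SAP (gene SH2D1A) and EAT-2 (gene SH2D1B). In B cells CD48 is known as an activation antigen that Epstein-Barr virus induces, and loss of CD58 is a known route by which B-cell lymphomas evade T cells and NK cells.

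A set of 9 genes, of 58273 in the deposited table, was followed here, each found by its symbol in 1 row: CD48, CD244, CD84, SLAMF1, SLAMF6, SLAMF7, SLAMF8, LY9 and CD58. The set was chosen by the FPKM values of CD48, which were lower in the knockdown libraries. The difference between groups is therefore given for all 9 as a description, with no test. The standard errors (SE) beside it come from limma, a model fitted over all genes. They rest on the spread between libraries, moved toward that of genes of similar level, and are only a description. RNA-seq was made from 3 libraries of wild type cells and 3 libraries of cells in which a short hairpin RNA targeted ENO1 (shENO1), all labelled Daudi, a line established from a Burkitt lymphoma. No library is labelled as carrying a control hairpin, so the delivery of a hairpin and the loss of ENO1 cannot be told apart, and the labels do not say that the replicates were separate cultures, so p-values measure only the spread between these samples. Levels are in FPKM, that is, fragments scaled to transcript length and to the size of the library. ENO1, the targeted glycolytic enzyme, stood at 927, 998 and 1747 FPKM in wild type replicates 1 to 3, against 212, 242 and 368 FPKM with the hairpin, with no overlap.

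The markers of a B cell were largely missing from these libraries. MS4A1, which encodes CD20, did not exceed 0.101 FPKM, and CD79B, BLK and FCRLA were listed at 0 in all 6 libraries. The 10 B-cell markers summed to 92.4 to 126 FPKM among wild type libraries and 84.3 to 106 among shENO1 libraries, most of it from CD37, a leukocyte tetraspanin, without which the sum was 14.4 to 18.6 FPKM. CD22 was the next highest on average, at 3.18 to 5.10 FPKM. The 12 myeloid markers summed to 378 to 698 FPKM (wild type) and 411 to 737 FPKM (shENO1), led by lysozyme (LYZ) and the transcription factor SPI1, and 10 of the 12 passed the filter used for tests, 0.5 FPKM in at least 3 libraries. Of the 8 T-cell markers CD4, a gene that monocytes also express, and CD5 passed the filter, and CD3G and CD7 were listed at 0 throughout. Their sum was 90.7 to 126 FPKM (wild type) and 89.3 to 114 FPKM (shENO1), most of it from CD4, at 87.9 to 124 FPKM over the 6 libraries. Of the 8 NK-cell markers NKG7, NCAM1 and KLRB1 passed and KLRD1 and NCR1 were listed at 0. The sums were 75.6 to 98.7 FPKM (wild type) and 76.7 to 90.5 FPKM (shENO1), most of it from NKG7, at 59.8 to 76.6 FPKM. Of the 6 plasma-cell markers XBP1 and PRDM1 were highest, and SDC1 and TNFRSF17 were listed at 0. The sums were 78.0 to 108 FPKM and 72.9 to 105 FPKM, most of it from XBP1, at 69.7 to 106 FPKM. The sums overlapped between groups for all 5 lists, but some single markers did not. CD22 (means 5.005 and 3.999 FPKM), NKG7 (68.8 and 61.1 FPKM) and PRDM1 (2.54 and 1.26 FPKM) were lower in every shENO1 library. Among markers past the filter these are 1 of 6 (B cell), 1 of 3 (NK cell) and 1 of 4 (plasma cell). The T-cell and myeloid lists had 0 of 2 and 0 of 10. Over all genes tested 3.28% were lower in this way, and nothing is read from the counts. The part of these markers in the values of CD48 was not tested. The cells are therefore called by their labels below, and the values are not read as those of B cells.

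Of the 9 genes, 3 had substantial levels, 3 had low levels and 3 were near 0. CD48 was the most abundant on average (69.8 ± 25.7 FPKM, SD, n = 6) and stood above 88.3% of the 11904 protein-coding genes that passed the filter. CD244 followed at 48.96 ± 11.8 FPKM and CD58 at 19.4 ± 2.58 FPKM. LY9 (2.28 ± 0.606), CD84 (1.19 ± 0.606) and SLAMF1 (0.766 ± 0.365 FPKM) formed the low group. SLAMF8, SLAMF7 and SLAMF6 stayed below 0.3 FPKM in every library and did not pass the filter. The order CD244 over CD58, CD58 over LY9 and SLAMF1 over SLAMF8 held in 6 of 6 libraries, and LY9 exceeded CD84 in 5 of 6. CD48 and CD244 were not separated, since CD48 was the higher in 4 of 6 libraries, and neither were CD84 and SLAMF1, SLAMF8 and SLAMF7, or SLAMF7 and SLAMF6, each in that order in 4 of 6.

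All 9 genes lie on chromosome 1 (GENCODE release 29, GRCh38). CD48 occupies chr1:160678746-160711851 on the minus strand. SLAMF6, CD84, SLAMF1, CD48, SLAMF7, LY9 and CD244 follow one another in that order within 378 kb, from 160485030 to 160862855, with SLAMF7 and LY9 on the plus strand and the other 5 on the minus strand. SLAMF8 lies apart at chr1:159826750-159837249, and CD58 at chr1:116514535-116571039 on the other arm.

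RefSeq start sites (GRCh38.p14) were found for 6 of the 9 genes, CD48, CD244, SLAMF1, SLAMF6, SLAMF8 and CD58. The 250 bases before the start are shown for the 3 genes with substantial levels, because their sequences differ in kind, with CG pairs in capitals. They are at chr1:160711823-160712072 for CD48, chr1:160862888-160863137 for CD244 and chr1:116571027-116571276 for CD58, all read 5′ to 3′ on the minus strand.
CD48: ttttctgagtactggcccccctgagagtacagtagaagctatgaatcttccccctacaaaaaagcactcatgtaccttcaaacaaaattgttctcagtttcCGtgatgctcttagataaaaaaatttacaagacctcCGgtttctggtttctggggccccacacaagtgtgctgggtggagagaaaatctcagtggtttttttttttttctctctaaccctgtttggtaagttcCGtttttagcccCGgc
CD244: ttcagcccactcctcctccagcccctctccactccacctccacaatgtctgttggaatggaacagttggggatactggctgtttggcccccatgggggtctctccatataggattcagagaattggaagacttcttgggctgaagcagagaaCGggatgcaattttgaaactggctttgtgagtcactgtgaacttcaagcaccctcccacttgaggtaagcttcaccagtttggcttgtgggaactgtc
CD58: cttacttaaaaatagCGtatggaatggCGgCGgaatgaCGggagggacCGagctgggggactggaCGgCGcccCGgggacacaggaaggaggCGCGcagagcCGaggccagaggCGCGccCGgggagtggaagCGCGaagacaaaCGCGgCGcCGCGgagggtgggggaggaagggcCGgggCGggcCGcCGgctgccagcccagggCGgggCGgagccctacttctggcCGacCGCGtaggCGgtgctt
The CD58 stretch held 31 CG pairs and 72.0% G and C, while the CD48 stretch held 4 pairs and 43.2% and the CD244 stretch 1 pair and 51.6%. Over all 35116 promoters of this length the median was 11 CG pairs. The motifs GAGGAA (the core of a PU.1 site), CACGTG (an E-box), CCAAT and TATAAA, none of which contains another, were searched on both strands. None was found in the stretches of CD48 and SLAMF1. GAGGAA lay 83 to 78 bases before the start of CD58, 36 to 31 before that of SLAMF6 and 93 to 88 before that of SLAMF8. CCAAT lay 129 to 125 bases before the start of CD244, and CACGTG 231 to 226 before that of SLAMF8. Of all promoters 23.6% held GAGGAA, 32.0% CCAAT, 10.7% TATAAA and 6.35% CACGTG.

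CD48, the GPI-anchored ligand, was at 94.5, 70.4 and 105 FPKM in wild type replicates 1 to 3 and at 46.4, 40.3 and 62.7 FPKM in shENO1 replicates 1 to 3. Every shENO1 library lay below every wild type library, and within each group replicate 2 was lowest and replicate 3 highest. The means were 89.9 ± 17.6 and 49.8 ± 11.6 FPKM (SD, n = 3 each), which leaves 55.4% of the wild type level. By same-numbered pair, 49.1%, 57.2% and 59.9% were left in pairs 1 to 3. The log2 fold change on the log2(FPKM + 0.5) scale was -0.85 (SE 0.21, or 0.08 with the replicate number as a block). In a bulk sample, fewer cells with CD48 and less CD48 RNA in each cell cannot be told apart. Among the 9 genes CD48 was the 1 whose groups did not overlap in the direction of lower values, against 3.28% of the 17870 genes tested. It was chosen for this, so nothing is read from the count.

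**Figure D1:**
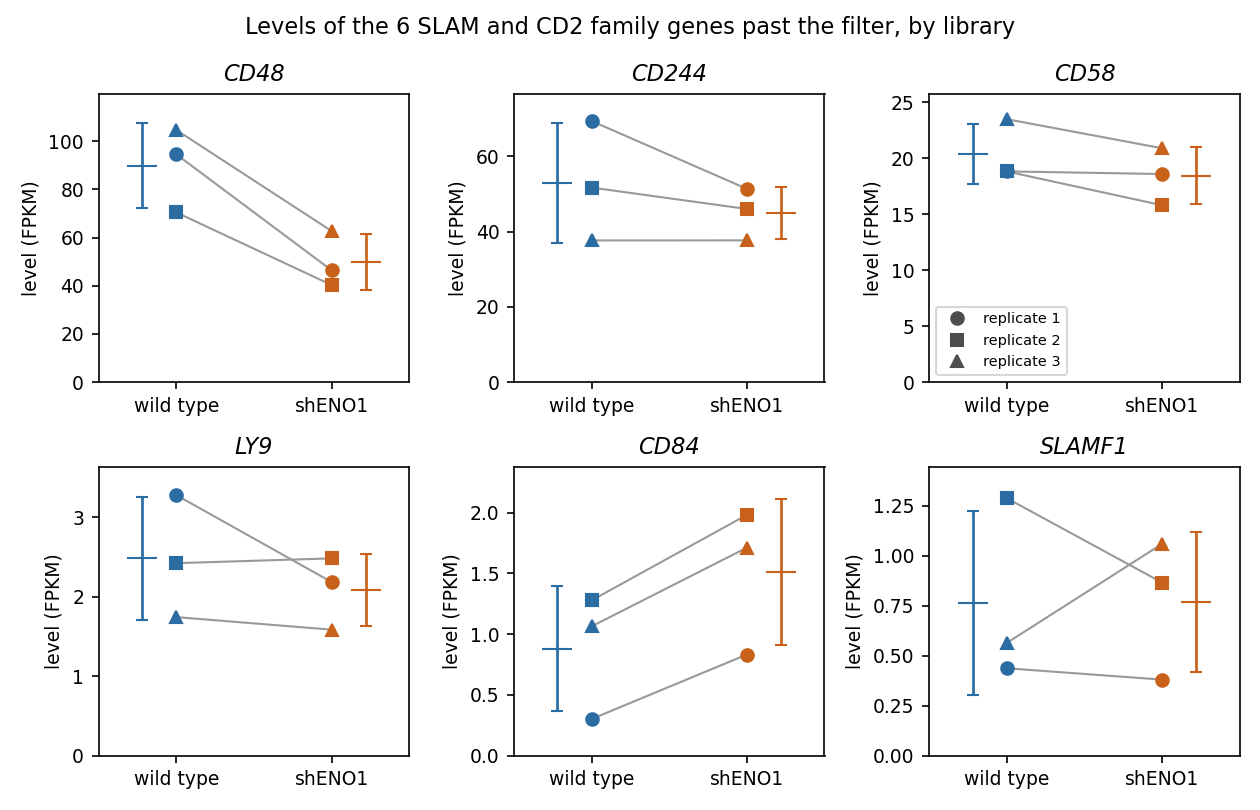
Level in FPKM (vertical axes, starting at 0) of the 6 genes that passed the filter, in each wild type (blue) and shENO1 (orange) library, with lines joining libraries of the same replicate number and bars at the side giving mean and SD (n = 3). CD48 is lower in all 3 pairs without overlap of the groups, while the groups overlap for the other 5 genes.

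The CD48 difference was next set within the whole transcriptome. Its log2 fold change ranked 214 from the lowest of 17870 genes tested, or within 1.20%. Among 7845 protein-coding genes with a mean of at least 10 FPKM it ranked 8, after ENO1, ADAMDEC1, C3, IMMP2L, TAPBP, FCAR and C6orf48, which are named here after their values were seen. The median over all genes tested was -0.0036. CD48 was chosen by this same contrast, so nothing is read from its ranks.

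CD244, the receptor that binds CD48 and that NK cells and monocytes carry, was at 69.4, 51.7 and 37.7 FPKM in wild type and at 51.4, 46.0 and 37.7 FPKM in shENO1. The groups overlapped, and in both of them replicate 1 was highest and replicate 3 lowest. The means were 52.9 ± 15.9 and 45.0 ± 6.90 FPKM, and the log2 fold change was -0.20 (SE 0.24, or 0.10 with the block). Without wild type replicate 1 the value was 0.02. In pairs 1 to 3 the shENO1 library held 74.0%, 89.0% and 100.03% of its wild type partner.

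CD58, the ligand of CD2, was at 18.8, 18.8 and 23.5 FPKM in wild type and at 18.6, 15.8 and 20.9 FPKM in shENO1. Relative to its mean it varied least across libraries of the 6 genes that passed the filter. The means were 20.4 ± 2.69 and 18.4 ± 2.55 FPKM and the log2 fold change was -0.14 (SE 0.17, or 0.08 with the block). The shENO1 value was lower in 3 of 3 pairs, at 98.7%, 84.0% and 88.9% of wild type, but the groups overlapped. Over all genes tested, 15.8% were lower in all 3 pairs.

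The homophilic receptors LY9, CD84 and SLAMF1 had low levels. LY9 was at 3.28, 2.42 and 1.74 FPKM in wild type and at 2.18, 2.48 and 1.59 FPKM in shENO1. The groups overlapped, with a log2 fold change of -0.19 (SE 0.28, or 0.20 with the block) that came to -0.0026 without wild type replicate 1. CD84 was the 1 gene of the 9 with higher values in shENO1 in every pair, at 0.301, 1.28 and 1.06 FPKM in wild type and at 0.832, 1.98 and 1.71 FPKM in shENO1. Its groups overlapped, since wild type replicates 2 and 3 lay above shENO1 replicate 1. The log2 fold change was 0.57 (SE 0.40, or 0.22 with the block), ranging from 0.22 without wild type replicate 1 to 0.84 without shENO1 replicate 1, and 14.1% of all genes tested were higher in all 3 pairs. SLAMF1, the receptor that measles virus uses to enter immune cells, was at 0.437, 1.29 and 0.564 FPKM in wild type and at 0.380, 0.866 and 1.06 FPKM in shENO1. Its log2 fold change was 0.02 (SE 0.37, or 0.29 with the block), with no common direction among the pairs, and leaving out 1 library at a time put it below 0 in 4 of 6 cases.

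**Figure D2:**
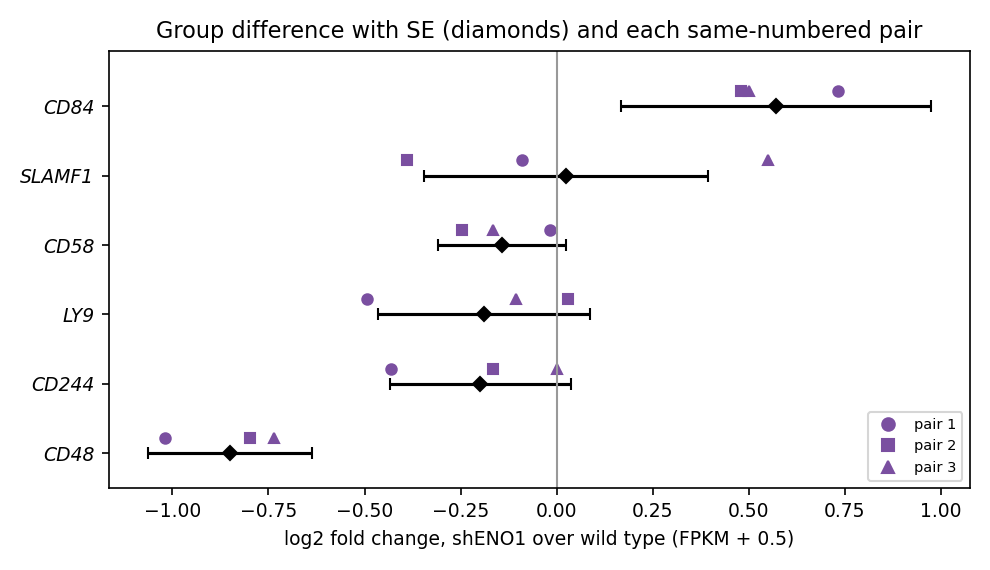
Log2 fold change of shENO1 over wild type for the 6 genes that passed the filter (horizontal axis, from log2 of FPKM + 0.5), with black diamonds and bars for the group difference and its SE and purple symbols for each same-numbered pair. CD48 lies at -0.85, with its 3 pairs between -1.02 and -0.73, and CD84 at 0.57 is the gene farthest to the right.

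The 3 remaining receptors were barely detected. SLAMF6, a homophilic receptor of T, B and NK cells, had 0.0285 FPKM in the first wild type library and was listed at 0 in the other 5. SLAMF7, a receptor abundant on plasma cells and the target of elotuzumab, was at 0.152, 0 and 0.201 FPKM (wild type) and 0.0327, 0 and 0.121 FPKM (shENO1). SLAMF8, a myeloid member with a short tail, was at 0.0256, 0.0864 and 0.253 FPKM (wild type) and 0, 0.0620 and 0.279 FPKM (shENO1). Both were highest in the libraries numbered 3, and no difference between groups was detectable at these levels.

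Of the 6 genes that passed the filter, 4 had a log2 fold change below 0 and 2 above, with a median of -0.17, and no test is read for them. None was higher without overlap, against 2.71% of all genes tested. Over all 17870 genes limma called 0%, a call requiring an adjusted p below 0.05 and more than 1 log2 unit of change (0.0056% with the replicate block, which is ENO1 alone), while 353 (1.98%) had an unadjusted p under 0.05, or 7.55% with the block. Nothing is read from these counts for the 6 genes, since the same contrast chose them. Without the block ENO1 itself was not called (limma adjusted p = 0.518), so a gene list with 0 called is not read as unchanged. SLAMF1 and CD84 lay close to the filter, with wild type means of 0.763 and 0.881 FPKM.

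Because a ratio of 2 genes within a library does not depend on how the library was scaled, CD48 was also set against its receptor and against CD58. The ratio of CD48 to CD244 was 1.36, 1.36 and 2.78 in wild type and 0.904, 0.876 and 1.66 in shENO1. In replicates 1 and 2 the ligand transcript was thus above the receptor transcript in wild type and below it in shENO1. The libraries numbered 3 had a higher ratio in both groups, and the groups overlapped across numbers. The ratio of CD48 to CD58 was 5.02, 3.74 and 4.46 in wild type and 2.50, 2.55 and 3.002 in shENO1, and here the groups did not overlap. The means of this second ratio were 4.41 ± 0.641 and 2.68 ± 0.277. CD48 made up 48.2% to 61.7% of the summed FPKM of the 9 genes in wild type and 37.5% to 49.8% in shENO1. CD48 was chosen for its lower values in shENO1, so nothing is read from the lower ratios or the lower share.

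**Figure D3:**
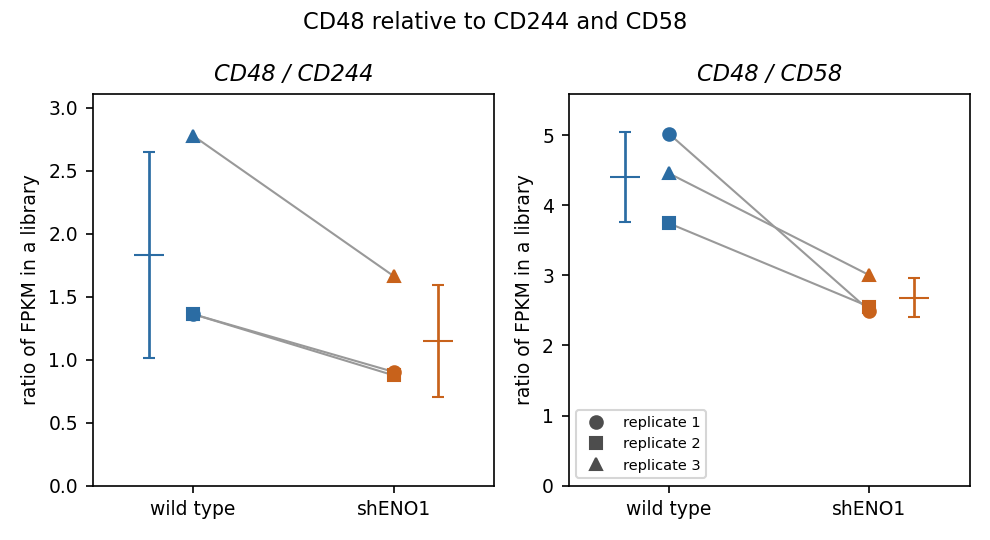
Ratio of CD48 to CD244 (left) and of CD48 to CD58 (right) in FPKM within each library (vertical axes, starting at 0), with lines joining same-numbered libraries and bars at the side for mean and SD (n = 3). Both ratios are lower in shENO1 in 3 of 3 pairs, and for CD58 the lowest wild type ratio, 3.74, is above the highest shENO1 ratio, 3.002.

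The adaptors that carry SLAM signals in lymphocytes were absent or nearly so. SH2D1A was listed at 0 in all 6 libraries, and SH2D1B at 0.0268 FPKM in wild type replicate 3, 0.0524 FPKM in shENO1 replicate 2 and 0 elsewhere. SLAMF9, a further member of the family, was listed at 0 throughout. CD2, the receptor of CD58, was at 0.328, 0.450 and 0.755 FPKM in wild type and at 0.252, 0.865 and 1.21 FPKM in shENO1, and its groups overlapped. The enzymes that act below SLAM receptors were present with the exception of LCK, the T-cell kinase, which was listed at 0. Of 12 such kinases, phosphatases and signal proteins, 11 were tested and 0 called, with log2 fold changes between -0.11 and 0.12. INPP5D, the phosphatase SHIP1, averaged 71.9 ± 4.94 FPKM (wild type) and 66.7 ± 6.30 FPKM (shENO1), and the docking protein DOK1 at 20.9 ± 2.04 and 22.6 ± 0.557 FPKM. The 3 partners of the CD2 tail were tested and 0 called, and among them PSTPIP1 was at 60.7 ± 12.5 and 62.5 ± 10.98 FPKM and CD2BP2 at 19.1 ± 3.59 and 20.7 ± 5.54 FPKM.

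CD48 needs a GPI anchor to stay on the surface, so the genes that build the anchor and the other anchored proteins were examined beside it. Of 29 anchor genes 27 were tested and 0 called, 15 below 0 and 12 above, with a median of -0.01. PIGL, which removes the acetyl group from the first anchor intermediate, was at 21.7, 21.1 and 23.7 FPKM in wild type and at 17.3, 17.3 and 14.9 FPKM in shENO1. Its groups did not overlap, as for 2 of the 27 genes in this direction, against 3.28% of all genes tested, and the log2 fold change was -0.42 (SE 0.14, limma adjusted p = 0.9999). PIGA, a subunit of the enzyme of the first step, was at 10.4 ± 1.46 and 8.57 ± 0.724 FPKM, also without overlap. The 1 anchor gene higher without overlap, against 2.71% of all genes tested, was PIGC, named after its values were seen, at 26.9, 25.04 and 22.04 FPKM in wild type and 27.3, 29.4 and 27.7 FPKM with the hairpin. Of 19 other GPI-anchored proteins 11 were tested and 0 called, with a median of 0.0023 and 0 without overlap in either direction. The prion protein gene PRNP was at 19.8 ± 2.89 and 17.4 ± 2.72 FPKM, and CD24 at 1.28 ± 0.4998 and 1.80 ± 0.899 FPKM. CD24 has near-identical pseudogene copies, so its counts are uncertain.

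Ligands of other NK-cell receptors were also read beside CD48 and CD58. Of 18 genes 11 were tested and 0 called, 5 below 0 and 6 above, with a median of 0.04. NECTIN2, a ligand of DNAM-1 and TIGIT, was at 10.8, 10.6 and 11.6 FPKM in wild type and at 8.38, 8.74 and 8.09 FPKM in shENO1. It was the 1 gene of the list without overlap, against 3.28% of all genes tested lower in this way, with a log2 fold change of -0.37 (SE 0.14, limma adjusted p = 0.9999). CLEC2B, the ligand of NKp80, was at 82.1 ± 5.405 and 92.6 ± 14.9 FPKM.

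**Figure D4:**
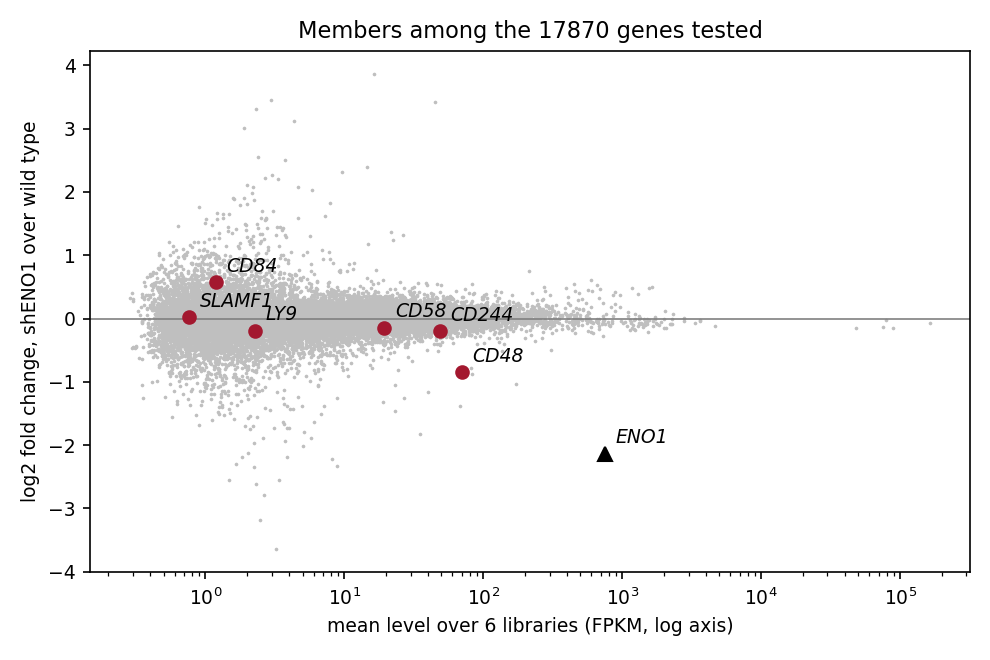
Log2 fold change of shENO1 over wild type (vertical axis) against the mean level over 6 libraries in FPKM (horizontal log axis) for the 17870 genes tested (grey), with the 6 SLAM and CD2 family genes in red and ENO1 as a black triangle. CD48, at 69.8 FPKM and -0.85, lies near the lower edge of the genes of like abundance.

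The neighbours of CD48 on the chromosome were read next. Within 500 kb of the 1036 kb from SLAMF8 to CD244, 30 protein-coding genes other than the members were tested and 0 called, 13 below 0 and 17 above, with a median of 0.04. PEX19, a peroxisomal import factor, was at 34.1 ± 3.18 FPKM (wild type) and 44.2 ± 1.98 FPKM (shENO1) (log2 fold change 0.37, SE 0.13), and CFAP45, a gene of cilia, at 0.758 ± 0.159 and 0.320 ± 0.198 FPKM (-0.64, SE 0.30). The groups of both did not overlap, nor did those of COPA, a coat protein gene named after its values were seen, at 120.8, 117.4 and 115.1 FPKM in wild type and 126.1, 122.6 and 122.2 FPKM with the hairpin. These are 1 gene lower and 2 higher of 30, against 3.28% and 2.71% of all genes tested. Within 500 kb of CD58, 6 protein-coding genes were tested and 0 called, 1 below 0 and 5 above, and CD101 was at 4.84 ± 2.41 and 6.42 ± 1.98 FPKM.

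A non-coding gene on the opposite strand, AL121985.1, overlaps CD48. It was at 1.68, 1.54 and 3.805 FPKM in wild type and at 1.11, 0.790 and 1.96 FPKM in shENO1, or 66.1%, 51.2% and 51.5% of wild type in pairs 1 to 3. Its groups overlapped, and 15.8% of all genes tested were lower in all 3 pairs. The use of strand in counting is not given in the sources read, so reads of the antisense gene and of CD48 cannot be told apart where they overlap. The pseudogene PPIAP37 overlaps CD244 and stood between 0.753 and 5.99 FPKM among wild type libraries and between 0.668 and 4.08 FPKM among shENO1 libraries.

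**Figure D5:**
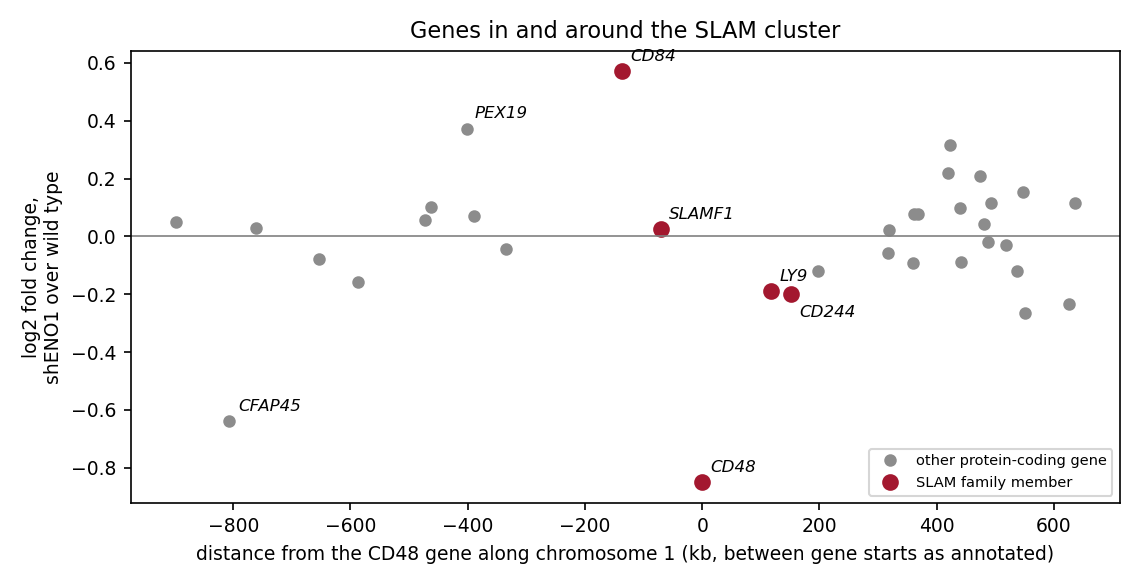
Log2 fold change of shENO1 over wild type (vertical axis) against distance from CD48 along chromosome 1 in kb (horizontal axis) for the tested SLAM family members (red) and the 30 other tested protein-coding genes within 500 kb of the stretch from SLAMF8 to CD244 (grey). CD48 at -0.85 is the lowest point and CD84 at 0.57 the highest.

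The genes whose profile over the 6 libraries was most like that of CD48 were taken from 11903 protein-coding genes by the root-mean-square difference of centred log2 values. They were PRH1 (0.162), FAP (0.165), BSCL2 (0.170), GARNL3 (0.187) and IL4I1 (0.192 log2 units), against a median of 0.531 over all genes compared. FAP, a serine protease of the cell surface, was at 2.59, 1.73 and 3.07 FPKM in wild type and at 0.659, 0.936 and 1.54 FPKM in shENO1. BSCL2, the lipid droplet protein seipin, was at 9.67, 6.24 and 10.96 FPKM in wild type and at 4.28, 3.24 and 7.85 FPKM in shENO1. IL4I1, a secreted amino acid oxidase, was at 8.24, 7.14 and 11.4 FPKM in wild type and at 3.02, 3.65 and 5.46 FPKM in shENO1. PRH1, the most alike, was at 1.45, 1.16 and 1.33 FPKM in wild type and at 0.510, 0.455 and 0.664 FPKM in shENO1, and GARNL3 at 3.05, 2.31 and 3.42 and at 1.52, 0.876 and 2.70 FPKM. The genes were chosen for this likeness, so their shared pattern is no result. It was not complete, since in PRH1 wild type replicate 1 and not 3 was the highest.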

How the data were processed

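RNA-seq of 3 wild type and 3 shENO1 libraries was analysed. The deposited values are FPKM, which the authors made with STAR, Cufflinks and Cuffnorm on hg38 (GRCh38) per the labels, with versions and library scaling not given in the sources used here. FPKM sums ran from 958697 to 1053890. Absolute depth is unknown, so no counting interval is given. Of 58273 identifiers 57966 matched GENCODE release 29 once the version was removed.

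Genes entered if 3 or more of the 6 libraries had 0.5 FPKM or more (17870 genes). Groups were compared on log2(FPKM + 0.5), which understates changes of low genes, with limma 3.58.1 in R 4.3.3 (intensity trend, two-sided, Benjamini-Hochberg over all genes), checked on simulated data. The study's DESeq2 needs reads, which were not used here. Replicate numbers were taken to pair libraries, because the correlation of same-numbered deviations from group means was 0.312, 0.176 and 0.491. For other pairs it was -0.390 to 0.144. Deviations within a group sum to 0 for each gene, so positive same-numbered values push the others down. Part of this contrast was therefore built in, and the margin for number 2 was small. The pairing was picked from these data, and the SE with the block rest on it. The labels do not say what a number marks.

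Members and gene lists were chosen with earlier results of these data known. Named genes are the members, adaptors, ENO1, the 2 genes of each list with the smallest p, marker genes, and the 5 genes most like CD48. Named genes of 1 neighbour list are not reported here. Genes named outside this rule are said to be so, or overlap a member. Other pseudocounts, filters, scalings, the block and left-out libraries were tried.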

Additional observations from a re-analysis of the deposited data

How the results depend on the processing

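The CD48 log2 fold change lay between -1.03 and -0.71 in all 15 alternatives. Leaving out 1 library gave the whole of that range. Each value differed from the main one by less than the spread between replicates. Leaving out 1 of 3 libraries cannot move a group difference by more than that spread. The block and the other filters leave the value of a gene as it is, here -0.85. This agreement was therefore largely fixed in advance, and CD48 was chosen by this same contrast, so nothing is read from it. The median of the 6 genes that passed the filter lay between -0.24 and -0.08, and from -0.22 to -0.08 with 1 library left out. CD58 and LY9 stayed below 0 and CD84 above 0 in all 15, while CD244 was above 0 in 1 of 15 and SLAMF1 below 0 in 5 of 14, all of them fits with fewer libraries. SLAMF1 did not pass a filter of 1 FPKM. Genes called went from 0 to 1 with the replicate block, which is ENO1, and to 2 without both libraries numbered 3, which are ENO1 and AL590762.4. With 1 library left out the count was 0 in 6 of 6 fits. The block changed no call of the 9 genes. Of 17870 genes 1071 had groups that did not overlap, 2029 to 3836 with 1 library left out and 5906 without both libraries numbered 3, since fewer libraries overlap less often. The absolute depth is unknown, and values below 0.3 FPKM were not read as differences.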

Other observations

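Genes of B-cell activation, the programme in which CD48 was first described, were read as a list beside the family. Of 16 genes 13 were tested and 0 called, 10 below 0 and 3 above, with a median of -0.11. CD40, a receptor of T-cell help, was at 0.721, 0.506 and 0.712 FPKM in wild type and at 0.112, 0.0467 and 0 FPKM in shENO1. It passed the filter through the wild type libraries alone and so had to differ, and nothing is read from its lack of overlap. BIRC3, an inhibitor of apoptosis, was at 14.5, 8.64 and 10.1 FPKM in wild type and at 6.98, 6.46 and 6.57 FPKM in shENO1. BCL2A1, an anti-apoptotic relative of BCL2 named here after its values were seen, was at 46.2, 40.1 and 42.0 FPKM in wild type and at 35.5, 39.4 and 35.3 FPKM in shENO1. The groups of BIRC3 and BCL2A1 did not overlap. With CD40 they are 3 of the 13 genes tested, against 3.28% of all genes tested in this direction, and nothing is read from this count.

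All 10 subunits and inhibitors of NF-kappaB were tested and 0 called, 8 below 0 and 2 above, with a median of -0.18. Over all genes tested 50.8% lay below 0 and the median was -0.0036. TNFAIP3, which ends NF-kappaB signals, was at 28.4, 19.7 and 23.7 FPKM in wild type and at 16.1, 18.3 and 16.7 FPKM in shENO1, the 1 gene of the list whose groups did not overlap, against 3.28% of all genes tested lower without overlap. NFKB2, a precursor subunit, was at 51.4 ± 10.5 and 40.1 ± 2.78 FPKM, with overlap. Both lists were chosen with results of these data known, and their relation to CD48 was not tested.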
